A study of Mus musculus with 8 samples.

Results

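The genes described here encode the matrix metalloproteases (Mmp), the ADAMTS proteases (Adamts), the ADAMTS-like proteins (Adamtsl) and the tissue inhibitors of metalloproteases (Timp). They were chosen by symbol alone, as every gene whose single symbol on the array annotation is Mmp, Adamts, Adamtsl or Timp followed by a number, which gave 47 of 22180 genes: 20 Mmp, 18 Adamts, 5 Adamtsl and 4 Timp genes. Each gene was read from its transcript cluster, the set of probes for 1 transcript unit, with the highest mean over the 8 arrays. The samples are brain vessels of male C57Bl6 mice aged 2 months, freed either with an enzymatic incubation in place of homogenization, which partly digests the basal lamina (digested, 4 arrays), or with mechanical homogenization alone (undigested, 4 arrays). The mice of both groups carried no genetic change and received no drug. In the study's methods each library comes from vessels pooled over several mice, so the spread between arrays is that between pools. The digestion used Liberase, a blend of collagenase with a neutral protease, together with DNAse in a warm buffer, and both groups were profiled on Affymetrix Mouse Gene 2.0 arrays.

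Matrix metalloproteases are zinc enzymes that cut collagens, laminins and other matrix proteins, and several of them are secreted as inactive precursors that other proteases activate. ADAMTS proteases are secreted relatives that bind the matrix through thrombospondin repeats. Their substrates include proteoglycans such as versican, the amino-terminal ends of fibrillar procollagens and von Willebrand factor. ADAMTS-like proteins carry the repeats without the catalytic domain, and TIMPs block the active site of metalloproteases. In brain vessels Mmp2 and Mmp9 are known for cutting basal lamina proteins and loosening the barrier after injury.

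Of the 47 genes, 38 had a mean above the background floor, a log2 level of 4.68 under which 90% of olfactory and vomeronasal receptor clusters lay, and these were tested. In digested vessels 11 of the 38 fell and 6 rose at a limma adjusted p under 0.05, and 21 did not pass. Of all 16221 named genes above the floor, 23.4% passed in either direction. The 11 that fell were Adamts20, Adamts9, Adamts12, Adamts6, Adamts16, Adamts7, Adamtsl3, Adamtsl2, Mmp11, Mmp7 and Mmp19. The 6 that rose were Adamts5, Adamts14, Adamts8, Mmp2, Adamtsl1 and Timp2. Lowered genes made up 28.9% of the tested members, against 9.04% of those named genes. Raised genes made up 15.8%, which lay near the 14.4% of all genes. The median difference of the tested members was -0.09 on the log2 scale, and that of all named genes 0.02. The groups did not overlap for 17 of the 38 members (44.7%), against 29.6% of all genes, and those 17 were the genes past the test. The floor acts on the mean of all 8 arrays, so a gene low in 1 group could pass through the other, and these shares describe the tested genes without testing the family. The split between lowered and raised members depended on the scaling: it was 9 and 6 with each array centred on its median, 7 and 6 after a second quantile normalization, and 2 and 20 with the arrays centred on endothelial genes. The shares of all genes past the test on these scales were not computed. Endothelial centring moved the median of all clusters to 0.53, from -0.02 as deposited. In bulk RNA, fewer cells of a type and less RNA per cell cannot be told apart.

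**Figure D1:**
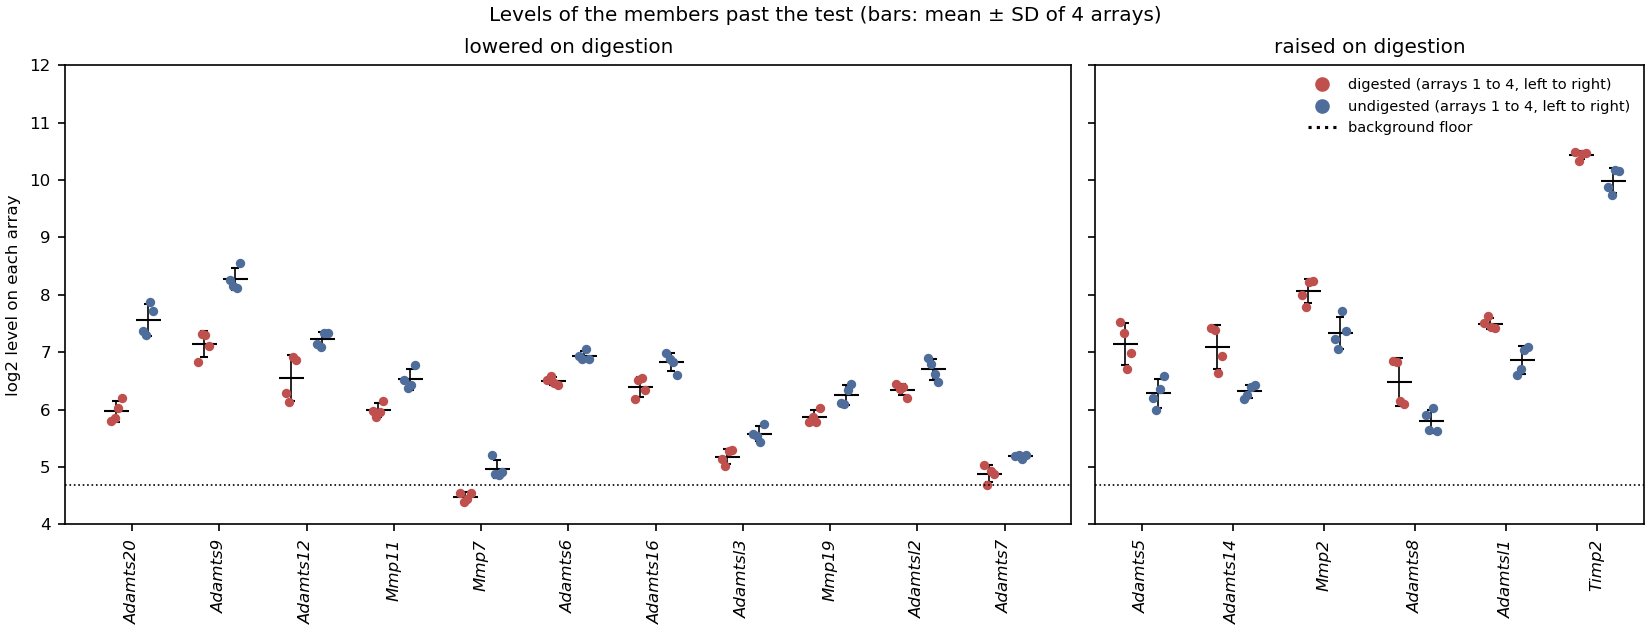
Log2 level of the 17 members past the test on each array, with lowered genes on the left and raised genes on the right; points are arrays (digested red, undigested blue), bars the mean ± SD of 4 arrays, and the dotted line the background floor of 4.68. Levels of different genes come from different probes and are not to be compared. The groups of each gene stand apart, and Mmp7 lies below the floor on all 4 digested arrays.

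The start regions of some of these genes are shown because Adamts20 and Adamts9, the 2 members that fell most, belong to 1 protease subgroup, Adamts14 rose, and Mmp7 alone stood above the floor among its chromosomal neighbours. RefSeq (build GRCm38.p6) gave promoter entries for 32 of the 47 members. Printed are the 250 bases before the annotated start, 5′ to 3′, with matches to 3 motifs in capitals: the GC box (GGGCGG), the TATA box (TATAAA) and the AP-1 site (TGANTCA), each searched on both strands. The windows are chr15:94404351-94404600, minus strand (Adamts20), chr6:92943535-92943784, minus strand (Adamts9), chr10:61273420-61273669, minus strand (Adamts14) and chr9:7691840-7692089, plus strand (Mmp7, the first of its 2 entries).
Adamts20: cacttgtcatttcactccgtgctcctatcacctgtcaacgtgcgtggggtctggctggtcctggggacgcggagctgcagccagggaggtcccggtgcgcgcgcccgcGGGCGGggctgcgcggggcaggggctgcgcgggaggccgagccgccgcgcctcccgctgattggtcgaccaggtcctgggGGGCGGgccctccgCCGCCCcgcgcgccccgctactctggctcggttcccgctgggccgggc
Adamts9: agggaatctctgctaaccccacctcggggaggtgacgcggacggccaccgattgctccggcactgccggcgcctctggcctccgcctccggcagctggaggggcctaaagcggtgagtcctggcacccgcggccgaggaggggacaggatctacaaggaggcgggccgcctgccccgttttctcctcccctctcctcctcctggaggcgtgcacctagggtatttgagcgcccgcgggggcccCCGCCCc
Adamts14: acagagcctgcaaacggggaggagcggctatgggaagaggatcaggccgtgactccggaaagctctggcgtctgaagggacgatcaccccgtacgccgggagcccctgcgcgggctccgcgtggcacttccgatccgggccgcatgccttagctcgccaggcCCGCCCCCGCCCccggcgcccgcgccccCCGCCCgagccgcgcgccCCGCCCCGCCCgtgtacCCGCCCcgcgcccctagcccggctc
Mmp7: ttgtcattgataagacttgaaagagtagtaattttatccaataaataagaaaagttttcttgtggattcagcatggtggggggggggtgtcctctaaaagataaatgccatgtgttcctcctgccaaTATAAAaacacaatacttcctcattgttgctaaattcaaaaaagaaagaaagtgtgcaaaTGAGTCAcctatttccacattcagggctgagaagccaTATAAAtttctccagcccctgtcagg
The GC box matched 3 times before Adamts20, 1 time before Adamts9 and 6 times before Adamts14, overlapping matches included, and not before Mmp7. The Mmp7 window held 1 AP-1 match and 2 TATA boxes. Of the 35 windows of these 32 members, 18 held a GC box, 8 a TATA box and 6 an AP-1 match, whereas 32.7%, 12.4% and 6.75% of all 32851 promoter windows did. A match is a run of letters and does not show that a factor binds there.

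The proteoglycanases, the ADAMTS enzymes that cut versican, aggrecan and related core proteins, held both the most lowered and the most raised member. Of 7 genes, 2 fell, 2 rose and 3 did not pass, while 9.04% of all named genes fell and 14.4% rose. Adamts20 (transcript cluster 17320737) stood at 5.81, 5.85, 6.03 and 6.20 on digested arrays 1 to 4, against 7.36, 7.30, 7.88 and 7.71 on undigested arrays 1 to 4. Every digested array lay more than a log2 unit below every undigested one. The gene was 3.02-fold lower in digested vessels (log2 difference -1.59, SE 0.15, limma adjusted p = 0.000498). Adamts9 (17469136), which shares with Adamts20 a carboxy-terminal GON domain, had 6.83, 7.32, 7.29 and 7.11 on the digested arrays and 8.25, 8.16, 8.12 and 8.55 on the undigested ones. Its groups were also well apart, with a 2.19-fold lower level in digested vessels (-1.13, SE 0.14, adjusted p = 0.00116). Both passed in every alternative run, and with the arrays centred on the endothelial genes they were the 2 members still lowered (-1.04 for Adamts20 and -0.57 for Adamts9). At the methods' thresholds, an unadjusted p of 0.05 and a 2-fold change in the methods' t-test, they were likewise the 2 lowered members, a class that held 1.41% of all genes, and 0 members were raised, against 1.33% of all genes. After Benjamini-Hochberg adjustment the methods' t-test gave 7 lowered and 3 raised members, and the shares of all genes in that test were not computed.

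Adamts5 (17331720), a versicanase and the main aggrecanase of mouse cartilage, had 7.53, 7.34, 6.70 and 6.99 on the digested arrays and 6.20, 6.0, 6.35 and 6.59 on the undigested ones. Digested arrays 1 and 2 were the high ones, and digested array 3 (6.70) was close to undigested array 4 (6.59). The mean was 7.14 ± 0.37 in digested vessels and 6.28 ± 0.25 in undigested vessels (SD, n = 4 each), a 1.81-fold rise (0.86, SE 0.19, limma adjusted p = 0.0136). Adamts8 (17515703), first known as an antiangiogenic protein, showed the same division, with 6.84, 6.83, 6.14 and 6.09 on the digested arrays and 5.90, 5.64, 6.03 and 5.63 on the undigested ones. It was 1.60-fold higher (0.68, SE 0.20, adjusted p = 0.0375). The Adamts8 call was lost without digested replicate 1 (0.55), digested replicate 2 (0.56) or undigested replicate 1 (0.71), 2 (0.62) or 4 (0.62), and a further Adamts8 cluster differed by 0.31 (adjusted p = 0.186).

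The remaining proteoglycanases did not pass. Adamts15 (17525224), next to Adamts8 on chromosome 9 with no protein-coding gene between, had 7.33, 7.25, 6.96 and 7.02 on the digested arrays and 6.73, 6.81, 6.71 and 7.03 on the undigested ones. Its difference was 0.32 (SE 0.11, limma adjusted p = 0.0716). It passed without undigested replicate 4 (0.39), with a weight per array in the fit (0.35) and with endothelial centring (0.88). Adamts1 (17331705), the neighbour of Adamts5 on chromosome 16 and a gene that many cells switch on quickly when stimulated, had 9.34, 9.35, 9.14 and 8.96 on the digested arrays and 9.21, 9.46, 8.28 and 9.20 on the undigested ones. The low undigested array 3 set most of its difference of 0.16 (SE 0.23, adjusted p = 0.66), which was -0.09 without that array. Adamts4, a further aggrecanase, averaged 5.56 ± 0.26 in digested vessels and 5.53 ± 0.09 in undigested vessels (adjusted p = 0.908).

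**Figure D2:**
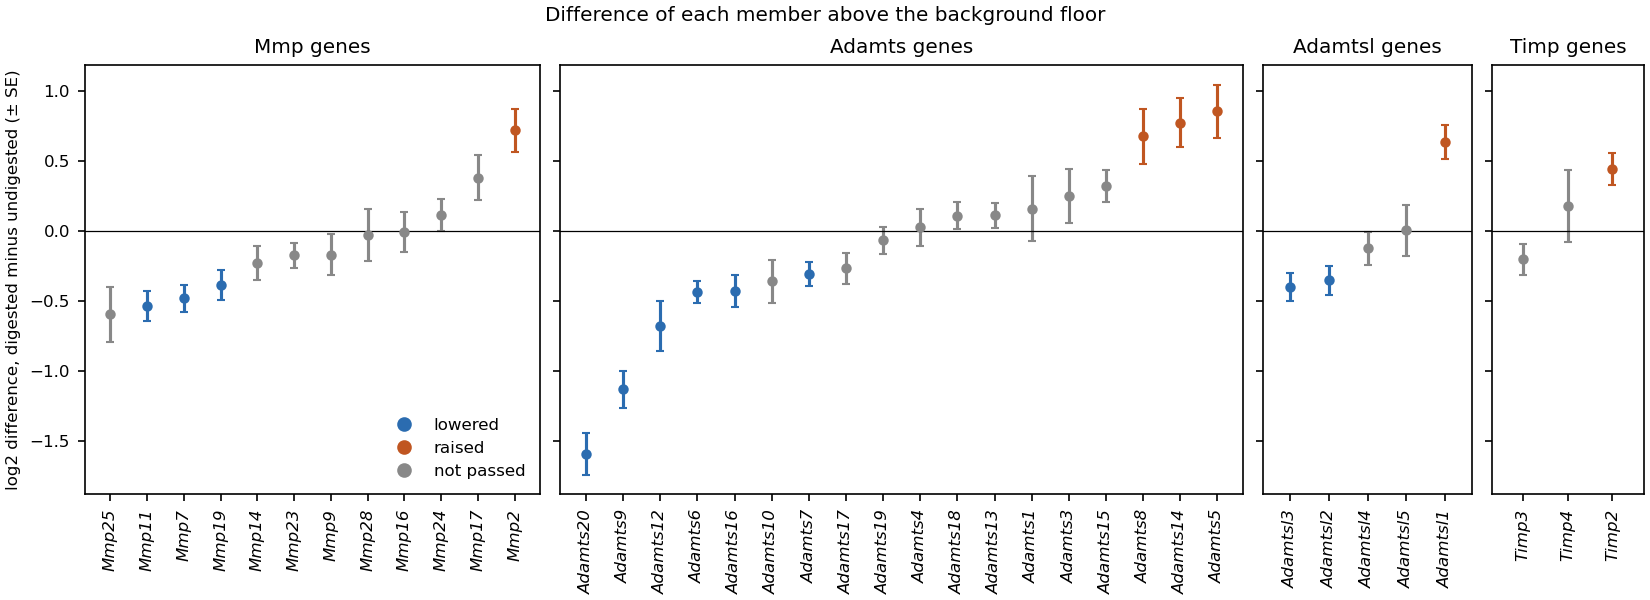
Log2 difference, digested minus undigested, of the 38 members above the floor, by family; bars are the SE of the limma fit, blue marks lowered, orange raised and grey not passed genes. The Adamts genes span the widest range, from -1.59 (Adamts20) to 0.86 (Adamts5).

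Among the procollagen N-proteinases, which trim fibrillar procollagens so that they can assemble, Adamts14 rose and Adamts3 did not pass. Adamts14 (17241181) had 7.43, 7.38, 6.63 and 6.93 on the digested arrays and 6.19, 6.26, 6.39 and 6.42 on the undigested ones. As for Adamts5 and Adamts8, digested arrays 1 and 2 were the highest. Its mean was 7.09 ± 0.38 in digested vessels and 6.32 ± 0.11 in undigested vessels, a 1.71-fold rise (0.78, SE 0.17, limma adjusted p = 0.0138). A further Adamts14 cluster, close to the floor, differed by 0.22 (adjusted p = 0.0832). Adamts3 ranged from 5.14 to 6.15 on the digested arrays and from 5.23 to 5.52 on the undigested ones (adjusted p = 0.393). In the methods' t-test after Benjamini-Hochberg adjustment, Adamts14 (adjusted p = 0.051) and Adamts5 (adjusted p = 0.0524) missed the threshold.

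Digested arrays 1 and 2 were both higher than digested arrays 3 and 4 for 13 of the 38 tested members, Adamts5, Adamts8 and Adamts14 among them, and for 2 of 13 marker lists, the smooth muscle markers and the immediate early genes. They were both lower for 7 of the 38 members. The same held for 6 of 13 lists, those of astrocytes, choroid plexus epithelium, ependyma, microglia, perivascular fibroblasts and perivascular macrophages. The share of all genes divided in either way was not computed. The mean log2 level of the 17 smooth muscle markers was 9.95, 9.93, 9.18 and 9.34 on digested arrays 1 to 4 and 9.04 to 9.22 on the undigested arrays, and that of the immediate early genes was 8.08, 8.13, 7.86 and 7.68 on the digested arrays and 7.20 to 7.92 on the undigested ones. Of the 17 smooth muscle genes 3 rose and 1 fell, with a median difference of 0.50, while 14.4% of all named genes rose and 9.04% fell. The part of either list in the rise of these Adamts genes was not tested.

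The COMP-cleaving pair, Adamts12 and Adamts7, named for cartilage oligomeric matrix protein, fell together. Adamts12 (17310368) had 6.29, 6.13, 6.91 and 6.87 on the digested arrays, against 7.15, 7.08, 7.33 and 7.34 on the undigested arrays. Digested arrays 1 and 2 were the low ones here, and the gene was 1.60-fold lower (-0.68, SE 0.18, limma adjusted p = 0.0277). Its call was lost without digested replicate 1 (-0.59) or 2 (-0.54) or undigested replicate 1 (-0.70), 3 (-0.64) or 4 (-0.64). Adamts7 (17520254) had 5.03, 4.69, 4.93 and 4.87 on the digested arrays and 5.20, 5.21, 5.14 and 5.21 on the undigested ones. These levels lie just above the floor, and the difference of -0.31 (SE 0.09, adjusted p = 0.0363) passed in 1 of the 8 fits without 1 array, that without digested replicate 1, and ranged from -0.36 to -0.24 over those fits. With the replicate number as a block the adjusted p of Adamts7 was 0.0664.

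Of the 6 remaining ADAMTS proteases with fewer known substrates, Adamts6 and Adamts16 fell. Adamts6 (17289602) had a tight spread, with 6.52, 6.59, 6.46 and 6.43 on the digested arrays and 6.93, 6.88, 7.05 and 6.88 on the undigested ones. It was 1.35-fold lower (-0.44, SE 0.08, limma adjusted p = 0.00546). Adamts10 (17336086), its closest relative and a partner of fibrillin microfibrils, had 8.57, 8.51, 7.85 and 8.29 on the digested arrays and 8.54, 8.67, 8.81 and 8.65 on the undigested ones. The groups overlapped and its difference was -0.36 (SE 0.15, adjusted p = 0.128). Adamts16 (17294187), known for its part in blood pressure and gonad development in rodents, had 6.18, 6.51, 6.55 and 6.34 on the digested arrays and 6.98, 6.88, 6.82 and 6.61 on the undigested ones, a 1.34-fold lower level (-0.43, SE 0.11, adjusted p = 0.0273). That call was lost without digested replicate 1 (-0.36) or 4 (-0.41) or undigested replicate 1 (-0.38) or 2 (-0.41). Adamts17 (-0.27), Adamts18 (0.11) and Adamts19 (-0.07) did not pass, with adjusted p of 0.117, 0.456 and 0.662. Nor did Adamts13, the protease of von Willebrand factor, with 5.08 ± 0.08 in digested vessels and 4.97 ± 0.13 in undigested vessels (adjusted p = 0.413).

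ADAMTS-like genes moved in both directions. Adamtsl1 (17415136), which encodes punctin, a matrix glycoprotein, had 7.50, 7.63, 7.43 and 7.43 on the digested arrays and 6.61, 6.70, 7.04 and 7.10 on the undigested ones. The digested arrays lay close together, whereas undigested arrays 1 and 2 were lower than undigested arrays 3 and 4. It was 1.55-fold higher in digested vessels (0.64, SE 0.12, limma adjusted p = 0.00769). It passed in every alternative run except the methods' t-test with its 2-fold threshold, which the size of its change does not reach. Its relative Adamtsl3 (17479769) had 5.13, 5.01, 5.28 and 5.29 on the digested arrays and 5.58, 5.54, 5.43 and 5.76 on the undigested ones (-0.40, SE 0.10, adjusted p = 0.0224). Without digested replicate 1 (-0.38) or 2 (-0.34) or undigested replicate 1 (-0.40) or 4 (-0.34) the Adamtsl3 call was lost. Adamtsl2 (17368476), which binds latent TGF-beta binding protein and fibrillin, had 6.44, 6.36, 6.38 and 6.21 on the digested arrays and 6.89, 6.80, 6.63 and 6.49 on the undigested ones. Its difference of -0.35 (SE 0.11, adjusted p = 0.0426) was past the test in 1 of the 8 fits without 1 array, that without undigested replicate 4, and ranged from -0.42 to -0.29 over those fits. Adamtsl4 (-0.12, adjusted p = 0.502) and Adamtsl5 (0.0073, adjusted p = 0.983) did not pass.

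Of the Mmp genes, 12 of 20 were above the floor, and of these 3 fell, 1 rose and 8 did not pass. Of all named genes 9.04% fell and 14.4% rose. The 1 Mmp gene that rose was Mmp2, the gelatinase that cuts type IV collagen of the basal lamina. Mmp2 (17503825) had 8.0, 7.79, 8.22 and 8.24 on the digested arrays and 7.22, 7.06, 7.71 and 7.37 on the undigested ones, and the highest undigested array lay just under the lowest digested one. Its mean was 8.06 ± 0.21 in digested vessels and 7.34 ± 0.28 in undigested vessels, a 1.65-fold rise (0.72, SE 0.15, limma adjusted p = 0.0116). Timp2 and the membrane-anchored protease Mmp14 are the partners that activate the Mmp2 precursor at the cell surface. Timp2 (17272770) had 10.49, 10.32, 10.46 and 10.46 on the digested arrays and 9.87, 9.74, 10.18 and 10.16 on the undigested ones. It rose 1.36-fold (0.44, SE 0.11, adjusted p = 0.0221), a call lost without digested replicate 1 (0.43), 3 (0.44) or 4 (0.43) or undigested replicate 1 (0.41) or 2 (0.36). Mmp14 (17300279) had 8.69, 8.51, 8.78 and 8.97 on the digested arrays and 8.85, 8.79, 9.07 and 9.14 on the undigested ones, with overlapping groups (-0.23, SE 0.12, adjusted p = 0.218).

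Within the undigested group, arrays 1 and 2 were both lower than arrays 3 and 4 for 13 of the 38 tested members, among them the raised Mmp2, Timp2, Adamtsl1, Adamts5 and Adamts14 and the lowered Adamts20, Adamts12 and Mmp19. They were both higher for 10 of the 38, among them the lowered Adamts16 and Adamtsl2. The share of all genes divided in either way was not computed. The mean levels of 9 of 13 marker lists were also lower on arrays 1 and 2, those of choroid plexus epithelium, ependyma, astrocytes, microglia, perivascular macrophages, perivascular fibroblasts, oligodendrocytes, neurons and smooth muscle. The endothelial, pericyte and immediate early lists, 3 of 13, were higher there. Among the 9 lists, the choroid plexus markers, 16 genes above the floor, had the highest median difference, with mean log2 levels of 10.02, 9.74, 10.34 and 10.38 on digested arrays 1 to 4 and of 8.47, 8.34, 9.24 and 9.24 on undigested arrays 1 to 4. Of those 16 genes 13 rose in limma, with a median of 1.34, and 3 did not pass, while 14.4% of all named genes rose. With undigested arrays 1 and 2 left out, an analysis chosen after seeing the data, 1 member was raised, Adamtsl1 (0.43), and 6 were lowered, Adamts20 (-1.83), Adamts9 (-1.20), Mmp11 (-0.61), Mmp19 (-0.53), Adamts6 (-0.47) and Mmp7. Mmp2 then differed by 0.52 (adjusted p = 0.0969), Timp2 by 0.27 (adjusted p = 0.134), Adamts5 by 0.67 (adjusted p = 0.118), Adamts14 by 0.68 (adjusted p = 0.114) and Adamts8 by 0.65 (adjusted p = 0.173). With undigested arrays 3 and 4 left out instead, 5 members were raised, Adamts5 (1.04), Mmp2 (0.92), Adamts14 (0.87), Adamtsl1 (0.84) and Timp2 (0.62), and 8 were lowered, Adamts20 (-1.36), Adamts9 (-1.07), Mmp25 (-0.92), Adamts16 (-0.54), Adamtsl2 (-0.50), Mmp11 (-0.46), Adamts6 (-0.41) and Mmp7. The part of choroid plexus or other cell type RNA in the rise of these genes was not tested. The shares of all genes past the test with undigested arrays left out were not computed.

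The lowered Mmp genes were Mmp11, Mmp7 and Mmp19. Mmp11 (17241981), which encodes stromelysin-3, had 5.97, 5.86, 5.96 and 6.16 on the digested arrays and 6.52, 6.37, 6.43 and 6.77 on the undigested ones, a 1.45-fold lower level (-0.54, SE 0.11, limma adjusted p = 0.00934). A further Mmp11 cluster of similar level had a smaller difference of -0.22 and did not pass (adjusted p = 0.235). Mmp19 (17238558), a protease of basement membrane proteins, had 5.78, 5.87, 5.79 and 6.03 on the digested arrays and 6.11, 6.10, 6.35 and 6.45 on the undigested ones (-0.38, SE 0.11, adjusted p = 0.0322). Without digested replicate 1 (-0.35), 2 (-0.39) or 3 (-0.36) or undigested replicate 3 (-0.35) or 4 (-0.32) the Mmp19 call was lost. Mmp7 (17514592), matrilysin, a small protease of epithelia that lacks the hemopexin domain, had 4.55, 4.39, 4.44 and 4.54 on the digested arrays and 5.20, 4.87, 4.87 and 4.91 on the undigested ones. All 4 digested arrays lay under the floor, so the gene was at least 1.21-fold lower in digested vessels, taking each digested array at the floor of 4.68 (adjusted p = 0.00941 in the fit, n = 4 each). It passed the floor only through its undigested arrays, so that this p gives its call no support of its own. A further Mmp7 cluster was under the floor.

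The 5 membrane-type Mmp genes did not pass in limma, although Mmp25 had an unadjusted p of 0.014 and Mmp17 one of 0.0408. Mmp25 (17341508), leukolysin, which in man is a neutrophil protease, had the largest difference of the 5, with 5.13, 5.37, 5.18 and 5.62 on the digested arrays and 6.12, 6.37, 5.74 and 5.45 on the undigested ones. Undigested array 4 lay within the digested range. The difference of -0.59 (SE 0.20, limma adjusted p = 0.0605) passed without that array (-0.75), and also with a weight per array in the fit. Mmp17 had 7.28, 7.45, 7.45 and 6.72 on the digested arrays and 6.72 to 6.98 on the undigested ones. Its difference of 0.38 (adjusted p = 0.124) passed without digested replicate 4 (0.55) and with endothelial centring. Mmp24, a protease of the nervous system, differed by 0.11 (adjusted p = 0.524), and Mmp16 averaged 6.11 in both groups, with an SD of 0.31 in digested and 0.03 in undigested vessels (adjusted p = 0.985).

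Mmp9, the other gelatinase and a hallmark of neutrophils and of injured vessels, stayed close to the floor. It had 4.90, 4.81, 5.18 and 4.45 on the digested arrays and 5.17, 5.01, 4.99 and 4.86 on the undigested ones (-0.17, SE 0.15, limma adjusted p = 0.453). Of 11 neutrophil markers 4 were above the floor, and the defining genes S100a8, S100a9, Ly6g, Ngp and Camp were under it. The mean of the 4 was 5.06 to 5.16 on the digested arrays and 5.12 to 5.25 on the undigested ones, and 1 of them, the cytokine receptor gene Csf3r, fell (-0.42, adjusted p = 0.0112). Mmp23 (-0.17, adjusted p = 0.212) and Mmp28 (-0.03, adjusted p = 0.928) did not pass.

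The 9 members under the floor were Mmp3, Mmp8, Mmp10, Mmp12, Mmp13, Mmp20, Mmp21, Mmp27 and Timp1. In the RefSeq gene order of chromosome 9, 10 Mmp genes follow each other with no other protein-coding gene between, from Mmp13 to Mmp7, and 8 of them are members (Mmp1a and Mmp1b carry a letter and were not taken). Of these 8, 7 were under the floor and only Mmp7 was above it. The group holds the collagenases Mmp8 and Mmp13, the stromelysins Mmp3 and Mmp10, the macrophage elastase Mmp12 and the enamel protease Mmp20. Of the 32 members with a promoter entry, 6 had an AP-1 match, and all 6 belong to this run: Mmp3, Mmp7, Mmp10, Mmp12, Mmp13 and Mmp20. Members without an entry were not searched. Among them were the raised Adamts5, Adamts8, Mmp2 and Adamtsl1 and the lowered Adamts6, Adamts7, Adamts16 and Mmp19. Mmp3, Mmp12, Mmp13 and Mmp20 did not exceed the floor on any array. The values just around the floor were means of 4.72 for Mmp7 and 4.77 for Adamts18 above it and of 4.59 for Mmp21 and 4.58 for Mmp10 below it. Timp1, the inhibitor known to rise in reactive glia, had 4.49, 4.60, 4.34 and 4.37 on the digested arrays and 4.55, 4.48, 4.77 and 4.74 on the undigested ones, with 2 of 8 arrays above the floor.

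Apart from Timp2, no TIMP gene passed. Timp3 (17236182), which binds to the matrix and inhibits Adamts4 and Adamts5 as well as metalloproteases, had 11.35, 11.51, 11.12 and 11.09 on the digested arrays and 11.41, 11.37, 11.52 and 11.57 on the undigested ones (-0.20, SE 0.11, limma adjusted p = 0.224). Timp4 (17469879), the inhibitor with the most restricted expression, had 6.97, 7.30, 6.17 and 6.07 on the digested arrays and 6.47, 6.28, 6.62 and 6.43 on the undigested ones. Its digested arrays split around the undigested ones, with arrays 1 and 2 above and arrays 3 and 4 below them (0.18, SE 0.26, adjusted p = 0.665).

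Of 21 measured genes of a list of activators, inhibitors and binding partners, 3 rose, 2 fell and 16 did not pass, with a median of -0.03, counts near the shares of all named genes (14.4% raised and 9.04% lowered). Pcolce2, which enhances procollagen processing, rose 2.45-fold (9.47 ± 0.27 in digested and 8.18 ± 0.48 in undigested vessels, limma adjusted p = 0.00553), and Thbs1, thrombospondin-1, rose 2.05-fold (adjusted p = 0.00426). The 2 that fell were Plat, tissue plasminogen activator (2.38-fold, adjusted p = 0.00316), and Spock2, a testican (2.30-fold, adjusted p = 0.00305). These are the 4 largest changes past the test. The third that rose was A2m, the broad protease trap alpha-2-macroglobulin (0.83, adjusted p = 0.028). The largest difference of the list, that of the astrocyte-derived serpin gene Serpina3n, did not pass, with 5.85 ± 0.23 in digested vessels and 7.20 ± 1.03 in undigested vessels (-1.35, adjusted p = 0.0519). Of 15 measured ADAM and astacin proteases 3 fell, Adam12 (-0.90), Adam15 (-0.42) and the sheddase Adam10 (-0.31), and 12 did not pass.

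Of 26 measured substrates and matrix partners 9 fell, 1 rose and 16 did not pass, with a median of -0.32, while 9.04% of all named genes fell and 14.4% rose. Lama2, a laminin chain of astrocyte and mural basal lamina, fell 2.06-fold (7.64 ± 0.15 in digested and 8.69 ± 0.23 in undigested vessels, limma adjusted p = 0.00138). The brain proteoglycans Bcan and Ncan, substrates of the proteoglycanases, fell 2.05-fold and 1.86-fold, and Col1a1 fell 2.05-fold. Vcan, the versican gene, is the 1 that rose (0.36, SE 0.09, adjusted p = 0.0215), and it is named after its value was seen.

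Several cell type marker lists also differed between the groups. Over all named genes 9.04% fell and 14.4% rose. Choroid plexus, smooth muscle and neutrophil markers are given above. Astrocyte markers fell in 16 of 20 genes (median -1.28), pericyte markers in 10 of 15 (-0.79), ependymal markers in 9 of 15 (-0.78), perivascular macrophage markers in 6 of 10 (-0.96), fibroblast markers in 11 of 18 (-0.57), microglia markers in 6 of 13 (-0.59) and endothelial markers in 16 of 30 (-0.47), and the remaining genes of these lists did not pass. Oligodendrocyte lineage markers had a median of 0.33 (7 of 17 raised, 2 lowered), neuronal markers one of 0.38 (4 of 14 raised) and immediate early genes one of 0.23 (4 of 17 raised, 1 lowered). For astrocyte markers the mean level was 7.34 to 7.70 on the digested and 8.50 to 8.84 on the undigested arrays, and for pericyte markers 8.0 to 8.22 on the digested and 8.71 to 8.99 on the undigested arrays. Adamts20 and Adamts9 fell beside these lists, and the part of any cell type in their fall was not tested. Centring the arrays on the 30 endothelial genes moved the median of all clusters to 0.53, against -0.02 as deposited, and on that scale 20 members were raised and 2 lowered. Adamts5 (1.41), Adamts14 (1.33), Mmp2 (1.28), Adamts8 (1.24), Adamtsl1 (1.19) and Timp2 (1.00) had the highest values, an order that centring cannot change since it shifts every member alike.

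**Figure D3:**
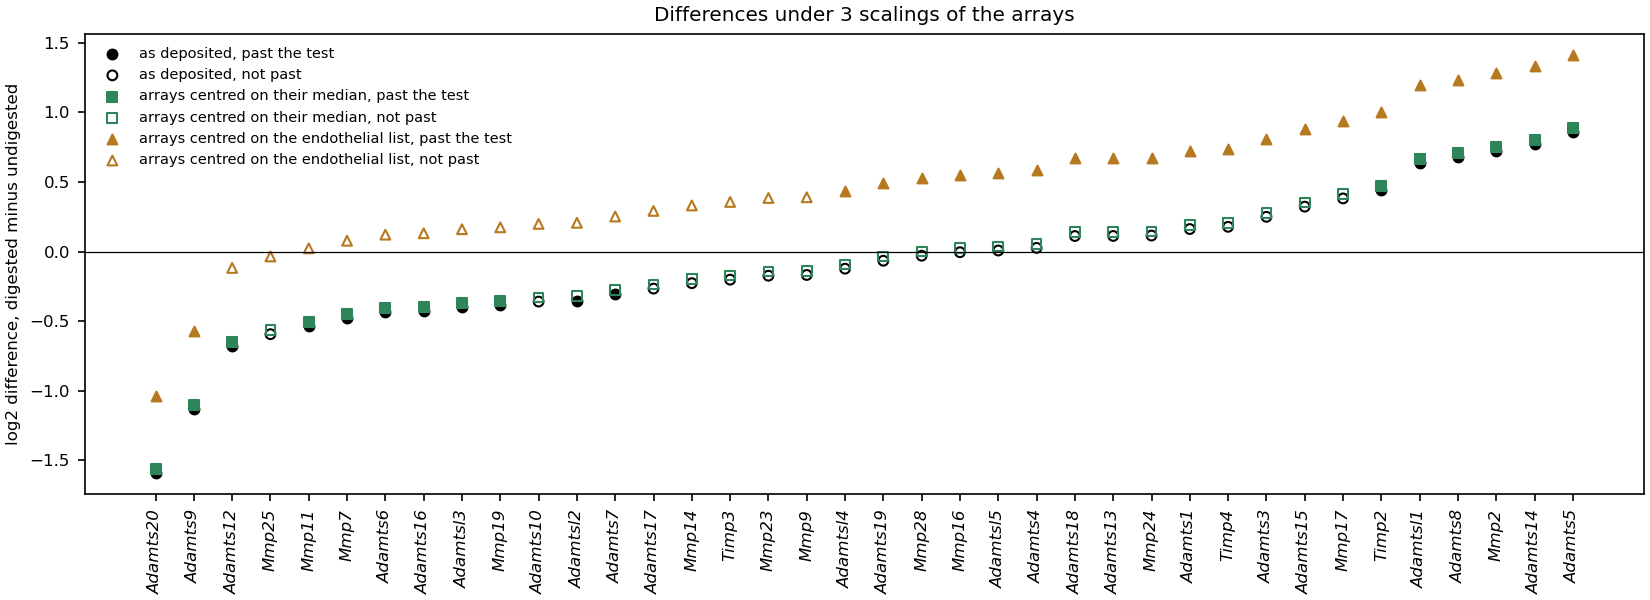
Log2 difference, digested minus undigested, of the 38 tested members with the values as deposited (circles), with arrays centred on their median (squares) and on endothelial genes (triangles); filled symbols passed the test. Centring on endothelial genes lifts all members by the same amount, and Adamts20 (-1.04) and Adamts9 (-0.57) alone remain past the test as lowered.

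**Figure D4:**
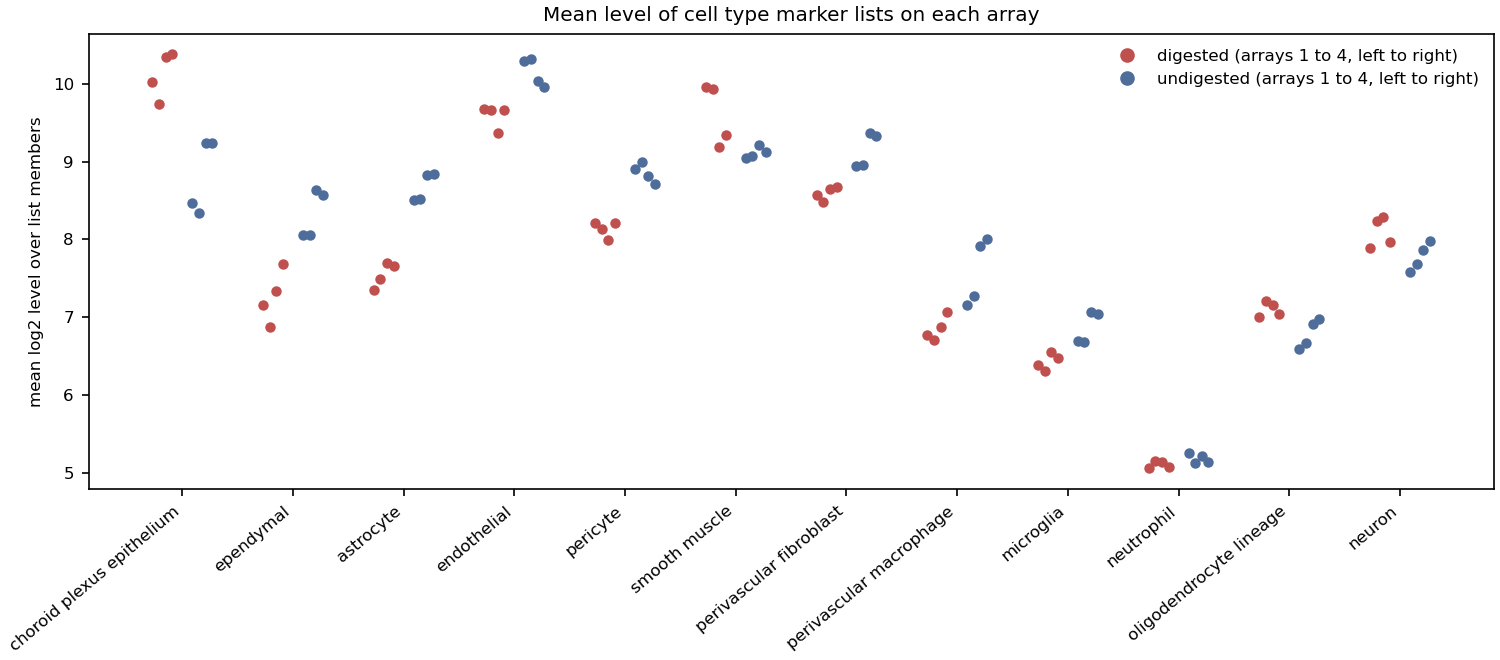
Mean log2 level of each cell type marker list on each array, digested arrays in red left of undigested arrays in blue. Choroid plexus markers and 8 of the other lists shown are lower on undigested arrays 1 and 2 than on 3 and 4, and endothelial and pericyte markers are higher there. Smooth muscle markers are highest on digested arrays 1 and 2 (9.95 and 9.93).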

How the data were processed

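Affymetrix Mouse Gene 2.0 arrays were used for 4 digested and 4 undigested pools of vessels, 1 array each. The authors deposited 1 log2 value per transcript cluster and array. Their methods describe quality control in Expression Console, quantile normalization and a correction on antigenomic background probes, but whether the deposited table went through these steps, and the program that wrote it, are not given in the sources used here. Its log2 scale was read from the values, and array medians ran from 5.58 to 5.71. The number of arrays limits the precision.

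Of 41345 clusters, 23521 have a single symbol in the platform annotation, and 23328 of these matched an Entrez identifier of the RefSeq table (GRCm38.p6), with 0 symbols changed. Clusters with several symbols or none were not named. The 27664 clusters with a mean above the floor, the 90th percentile of 1405 receptor clusters, were fitted with limma 3.58.1 in R 4.3.3 (lmFit, eBayes, two-sided, no covariate), with Benjamini-Hochberg adjustment over all of them. Where 1 group of a gene lay under the floor on all arrays, its fold is given as a bound. The steps were tested on simulated data. Python 3.11.15, pandas 2.3.3 and matplotlib 3.10.9 were used for tables and figures.

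All members above the floor are named, with up to 4 genes of each related list and marker lists as counts. Members and lists were chosen with earlier results of these data known, the study's list of lowered genes among them. Adamts2, Mmp15 and Adamtsl6 were not analysed here. The alternatives changed the scaling (median centring, endothelial centring, quantile normalization applied again), the floor (none, or the 95th percentile), the fit (weights per array, robust eBayes with a trend, a replicate block), the test (the methods' t-test) and the summary per gene (the mean of its clusters), and left out each array in turn. Leaving out undigested arrays 1 and 2, or 3 and 4, was added after seeing the data.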

Additional observations from a re-analysis of the deposited data

Results flagged for a closer look

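Mmp7 on undigested replicate 1 had a log2 level of 5.20, apart from the other undigested arrays, which lay between 4.87 and 4.91. The gap to the nearest array made up 0.871 of the whole range of the group. It was the 1 value that stood out among 76 groups of 4 arrays examined, and about 1 in 20 such groups is marked by chance. All 4 digested values of Mmp7 lie under the floor.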

How the results depend on the processing

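Over the fits without 1 array, lowered members numbered 6 to 8 (11 with all arrays) and raised members 4 to 6 (6 with all arrays). Of the 17 genes past the test, 9 passed in each of these 8 fits: Adamts20, Adamts9, Adamts6, Mmp11 and Mmp7 (measured against values under the floor) as lowered, and Adamts5, Adamts14, Adamtsl1 and Mmp2 as raised. Of the other genes, 15 of 21 passed in at least 1 alternative. Only Adamts15, Mmp17 and Mmp25 of them passed in an alternative other than endothelial centring. Lowered members numbered 7 after a second quantile normalization and 6 without undigested arrays 1 and 2, where 1 was raised. The methods' t-test gave 7 lowered and 3 raised after Benjamini-Hochberg adjustment, and 2 lowered and 0 raised at its unadjusted threshold with a 2-fold change. Centring on endothelial genes gave 2 lowered and 20 raised. Of the members called as deposited, it turned the sign of Adamts6 (0.12), Adamts7 (0.25), Adamts16 (0.13), Adamtsl2 (0.21), Adamtsl3 (0.16), Mmp7 (0.078), Mmp11 (0.023) and Mmp19 (0.17), none of them past the test on that scale. It also turned the sign of Adamts19 (0.49), Adamtsl4 (0.44), Mmp16 (0.55) and Mmp28 (0.53), which passed as raised. Some members past the test on neither scale, such as Adamts10 (0.20) and Adamts17 (0.29), changed sign as well. The endothelial list itself fell, so this scale measures change relative to endothelial RNA. With the replicate block 10 members were lowered and 6 raised. The deviations of arrays of the same number had correlations of 0.060, 0.182, -0.044 and 0.178 for numbers 1 to 4. Those of unlike numbers ran from -0.211 (digested 4 with undigested 2) to 0.199 (digested 4 with undigested 3). Whether arrays of a number shared a preparation is not given, and these correlations cannot decide it. In the remaining alternatives the counts lay within 1.5 times those given. Shares of all genes were computed only for the main fit and for the methods' t-test at its unadjusted threshold. Genes close to the floor, such as Adamts7, Adamts13, Adamts18, Adamts19, Mmp7 and Mmp9, were left out at the stricter floor.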
